A study of Mus musculus with 4 samples.

Results

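The rows of the deposited count table for the ribosomal RNA precursor *Rn45s*, the mitochondrial enzyme gene *Lars2* and the long noncoding RNAs *Malat1*, *Neat1*, *Gas5*, *Snhg1* and *Snhg12* are described here in NKT cells of the small intestinal lamina propria (SI-LP). These 7 of 25239 rows were chosen by symbol from a group picked for a large share of the counts, so their shares and levels are given as a description with no test. *Rn45s*, *Malat1* and *Lars2* held the 3 largest mean shares of all rows, while *Neat1*, *Gas5*, *Snhg1* and *Snhg12* had 0.037% or less each. All 4 libraries came from wild-type C57BL/6Jax mice with no treatment that differed between them: replicates 3 and 4 belonged to a first experiment, and replicates 1 and 2 to a second one. The cells (iNKT cells, T cells that carry an invariant receptor for lipids on CD1d) were sorted as live cells positive for TCR-β and the CD1d-PBS57 tetramer and negative for B220, CD11b, CD11c and CD8, from mice injected with a nanobody against ARTC2 before tissue was taken. The labels do not say which animals the libraries came from, so the spread between libraries may be partly technical. NKT cells of lymphoid tissues are not analysed here, and no treated group exists. Every comparison below is thus one between libraries or between the 2 experiments of a single condition, and measures the spread among replicates. A comparison of the experiments also holds anything else that differed between them, which cannot be told apart here.

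As background, RNA polymerase I transcribes the ribosomal RNA (rRNA) genes into a long precursor that is cut into the 18S, 5.8S and 28S rRNAs, and rRNA is the bulk of the RNA of any cell. What reaches a library depends on how far rRNA is removed before sequencing. The labels name total RNA as the molecule and the design text speaks of mRNA isolation. The paper names the Nugen Ovation ultralow kit for these libraries. None of these sources states the extent of rRNA removal. *Malat1* and *Neat1* are long RNAs that stay in the nucleus: *Malat1* gathers in nuclear speckles, where splicing factors are stored, and *Neat1* is the scaffold of paraspeckles. *Gas5*, *Snhg1* and *Snhg12* are host genes whose introns are cut out to make small nucleolar RNAs (snoRNAs), which guide the chemical modification of rRNA. Their spliced exons code for no known protein and are often degraded through nonsense-mediated decay, and *Gas5* accumulates in growth-arrested cells. *Lars2* encodes the leucyl-tRNA synthetase of mitochondria and is the one protein-coding gene of the group. Its 3′ untranslated region (UTR) has been described as carrying a stretch that resembles the large-subunit rRNA, a likeness that was not measured here.

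A stretch of *Lars2* that other loci share could be located in reference sequence. The *Lars2* transcript of GENCODE (GRCm39) was 3934 bases long, with a 3′ UTR that began at base 2949 and ran for 986 bases. A BLAST search of the whole transcript found 18 alignments elsewhere in the genome of at least 50 bases at 90% identity or more. Alignments at one locus were not merged. Of the 18, 17 fell on the 398 bases from 3062 to 3459, all within the 3′ UTR. The longest of these alignments was 244 bases at 97.5% identity. A window of 30 bases inside the stretch, which had the most exact copies, is shown since it is the part of *Lars2* that other loci share. It covered transcript bases 3214 to 3243 (GRCm39, chr9:123291009-123291038, plus strand), and capitals mark the 29 bases that were the same in all 6 or 7 alignments over them.
Lars2 3′ UTR: TCAGAAAAGTTACCACAGGGATAAcTGGCT
This window occurred 7 more times in the genome, and among 78045 GENCODE gene names only *Lars2*, *AA474408* and *Gm73646* held it in a transcript. The 1849 bases of the 18S rRNA gene that GENCODE names *Rn18s-rs5* shared no 15-base word with the *Lars2* transcript. One of the 18 alignments was on chromosome 17, which holds the *Rn45s* row, and its place there was not compared with that row. A sequence of 28S rRNA or of the *Rn45s* row was not used by itself. The likeness of the stretch to 28S rRNA is thus background and was not measured.

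**Figure D1:**
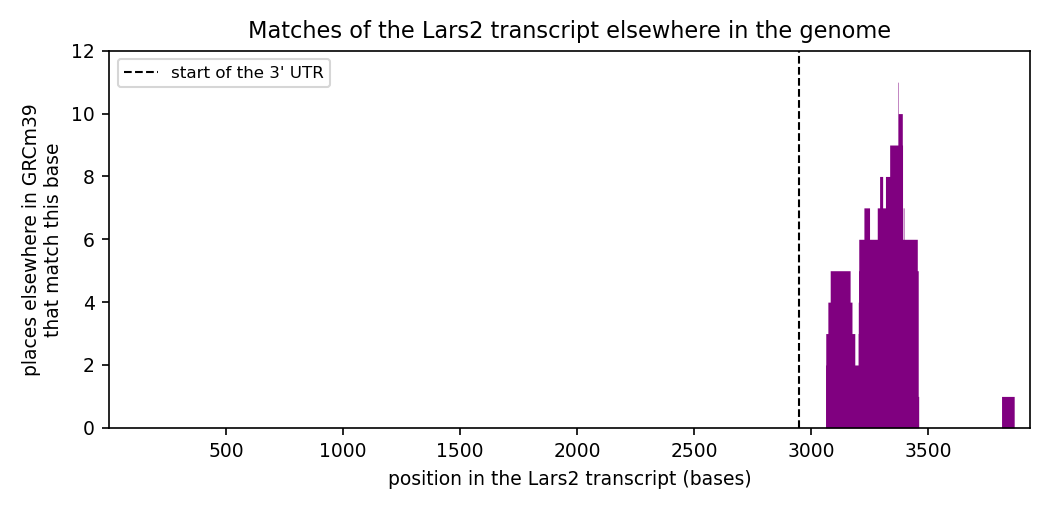
Number of alignments elsewhere in GRCm39 (vertical axis) that cover each base of the *Lars2* transcript (horizontal axis, bases from its 5′ end), for alignments of at least 50 bases and 90% identity. The dashed line marks the start of the 3′ UTR at base 2949. The matches pile up on bases 3062 to 3459, up to 11 deep, and the coding part has none.

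The rRNA row was the largest in every library. On GRCm38, the build of the deposited positions, *Rn45s* was a single exon of 5833 bases (chr17:39842997-39848829, plus strand) between the genes *Esp15* and *Esp38*; on GRCm39, GENCODE places *Rn18s-rs5* between the same neighbours. *Rn45s* had 825900 counts in replicate 1, 642604 in replicate 2, 1542778 in replicate 3 and 839478 in replicate 4. It took 11.4% (95% Wilson interval 11.40% to 11.44%), 7.36% (7.34% to 7.38%), 28.1% (28.08% to 28.15%) and 21.6% (21.58% to 21.66%) of the counts of these libraries. Both libraries of the first experiment were above both of the second. The intervals cover counting error only and are no measure of the spread between libraries. The mean share was 17.1% ± 9.47 (SD, n = 4). It ranked first of all rows in each of the 4 libraries, and *Malat1*, the next by mean share, took 2.09% ± 0.75.

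Scaled for library composition, the order of the libraries did not change. In CPM (counts per 1000000 after TMM scaling), *Rn45s* was at 115023 in replicate 1, 61855 in replicate 2, 346163 in replicate 3 and 211699 in replicate 4, a 5.60-fold range. The 4066 genes with at least 100 counts in every library had a median range of 2.45-fold, and 93.2% of them had a smaller range than *Rn45s*. Of these genes 16.9% ranged more than 4-fold. *Rn45s* and *Lars2* together held 12.0% of all counts in replicate 1, 7.82% in replicate 2, 30.02% in replicate 3 and 22.6% in replicate 4. Leaving these 2 rows out of the total raised the share of every other gene by 0.18, 0.12, 0.52 and 0.37 log2 units in replicates 1, 2, 3 and 4. The depth left for other genes was then 6368487, 8049980, 3839800 and 3006451 counts.

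*Lars2* was the third row by mean share. It spans chr9:123366927-123462675 on GRCm38 (plus strand), with 22 merged exons that add up to 4438 bases. Its counts were 38684 in replicate 1, 40274 in replicate 2, 104569 in replicate 3 and 36874 in replicate 4, and its shares were 0.535%, 0.461%, 1.91% and 0.9497%. Replicate 3 stood highest and the experiments did not overlap. Its rank by share was 4, 5, 2 and 4 in replicates 1 to 4, and the next row by mean share was *Eef1a1*, a translation elongation factor, at 0.563% ± 0.032. In CPM, *Lars2* was at 5388, 3877, 23463 and 9299, a 6.05-fold range.

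The counts of *Lars2* and *Rn45s* stood in a narrower ratio than either varied alone. *Lars2* had 4.68% of the *Rn45s* counts in replicate 1, 6.27% in replicate 2, 6.78% in replicate 3 and 4.39% in replicate 4 (mean 5.53% ± 1.17), so the ratio ranged 1.54-fold where the genes ranged 5.60-fold and 6.05-fold. In both rows replicate 3 was above replicate 4, replicate 4 above replicate 1 and replicate 1 above replicate 2, an order that 446 of the 11689 tested genes (3.82%) had, of 24 possible orders. How many other genes had as narrow a ratio to *Rn45s* was not counted. The 3 genes nearest to *Rn45s* in pattern were *Aagab*, *Phf6* and *Tfip11*. Those nearest to *Lars2* were *Zap70*, *Ypel3* and *Septin1*, so neither row was among the nearest of the other. With 4 libraries of one condition no correlation was computed. The table holds no positions of reads within a gene, so what part of the *Lars2* counts fell on the shared stretch was not tested.

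*Lars2* stood far above the other genes of its function. Mitochondrial aminoacyl-tRNA synthetases load each amino acid onto its tRNA inside mitochondria, and all 17 listed genes were in the table and passed the filter. In TPM, which also corrects for gene length, *Lars2* had 3627 in replicate 1, 2674 in replicate 2, 12936 in replicate 3 and 5161 in replicate 4. The other 16 genes had mean levels from 2.44 to 43.2 TPM with a median of 11.4, led by *Rars2* (arginine, 43.2 ± 43.5 TPM) and *Iars2* (isoleucine, 41.5 ± 18.5 TPM). *Lars2* was 74.1, 24.9, 491 and 167 times the highest of them in replicates 1 to 4. It was also above their sum in each library, by 16.2, 7.82, 93.6 and 28.1 times. The sum of the other 16 was 223, 342, 138 and 184 TPM in replicates 1 to 4, so it was lowest in replicate 3, where *Lars2* was highest, and highest in replicate 2, where *Lars2* was lowest.

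**Figure D2:**
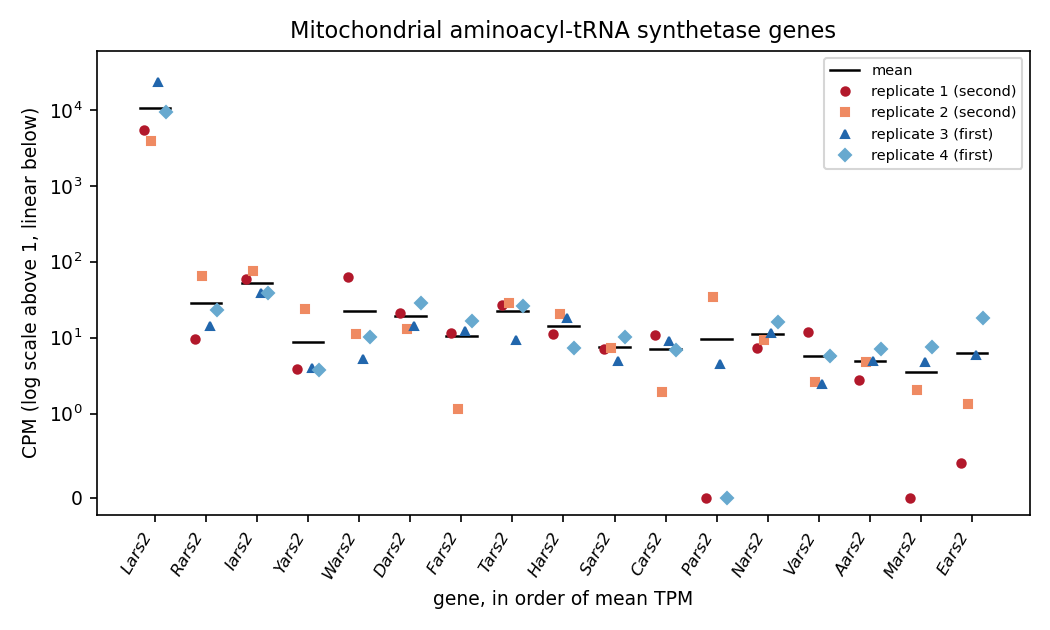
Level of the 17 mitochondrial aminoacyl-tRNA synthetase genes in CPM (vertical axis, logarithmic above 1 and linear below) in each of the 4 libraries, with the mean as a bar; genes are in order of mean TPM. All 4 *Lars2* points, from 3877 to 23463 CPM, lie above every point of the other 16 genes.

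*Malat1* was the most abundant of the long noncoding RNAs. It is a single exon of 6983 bases (GRCm38 chr19:5795690-5802672, minus strand), with 195182 counts in replicate 1, 241757 in replicate 2, 76985 in replicate 3 and 57440 in replicate 4. Its shares were 2.70%, 2.77%, 1.40% and 1.48%, close within each experiment and higher in the second. Without *Rn45s* and *Lars2* in the total they were 3.06%, 3.003%, 2.00% and 1.91%, so the second experiment stayed above the first. In CPM, *Malat1* was at 27183, 23271, 17274 and 14485, a 1.88-fold range, which was wider than that of 24.4% of the genes with at least 100 counts everywhere. The table also lists *Mascrna*, the small RNA cut from the 3′ end of *Malat1*, inside the *Malat1* exon, and it had 0 counts in all 4 libraries. A read that overlaps both rows fits neither alone, and whether such reads were left out was not tested. The 0 therefore sets no upper limit on the level of *Mascrna*.

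*Neat1* lies 22037 bases from *Malat1* on the same chromosome and strand (chr19:5824710-5845480), and was far lower. It had 3908 counts in replicate 1, 2508 in replicate 2, 1621 in replicate 3 and 1381 in replicate 4, which made 544, 241, 364 and 348 CPM. Replicates 3 and 4 lay between the libraries of the second experiment, so the experiments overlapped. The ratio of *Malat1* to *Neat1* counts was 49.9, 96.4, 47.5 and 41.6 in replicates 1 to 4. Its row spans 20771 bases, the length of the long isoform, and the short isoform that ends early within the same exon cannot be told apart from it in these counts. Corrected for length, *Neat1* was the lowest of the 7 rows, at 49.5 ± 19.4 TPM, percentile 71.4 of the tested genes by TPM and 96.9 by CPM.

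*Gas5* was steady between the libraries once they were scaled for composition. It had 2157 counts in replicate 1, 2916 in replicate 2, 897 in replicate 3 and 1011 in replicate 4 over 751 exonic bases (chr1:161034916-161038539, plus strand). In CPM it was at 300.4, 281, 201.3 and 255, a 1.49-fold range, and 7.97% of the genes with at least 100 counts everywhere had a smaller one. With library size alone its range was 2.05-fold, wider than that of *Malat1* (1.98) or *Neat1* (1.87). Both libraries of the second experiment were above both of the first. Its level per length was 958 ± 256 TPM, percentile 98.9 of the tested genes.

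*Snhg1* varied widely between the libraries. Its 476 exonic bases (chr19:8723487-8726326, plus strand, 10 merged exons) had 702 counts in replicate 1, 2144 in replicate 2, 128 in replicate 3 and 274 in replicate 4. In CPM these were 97.8, 206, 28.7 and 69.1, a 7.19-fold range, and 96.7% of the genes with at least 100 counts everywhere had a smaller one. The range was 3.404-fold without replicate 2 and 2.99-fold without replicate 3. The second experiment was above the first, and within each experiment one library was over 2 times the other: replicate 2 was 2.11-fold above replicate 1, and replicate 4 was 2.41-fold above replicate 3. Of all tested genes 19.6% were at least 2-fold higher in both of these pairs, so *Snhg1* shared this pattern with 2287 others. These include genes with no count in replicates 1 and 3, and the share among genes with counts like those of *Snhg1* was not computed.

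*Snhg12* was the lowest by counts, with 181 in replicate 1, 654 in replicate 2, 96 in replicate 3 and 122 in replicate 4 over 606 exonic bases (chr4:132308678-132311024, plus strand). Its CPM were 25.2, 63.0, 21.5 and 30.8. Replicate 2 stood above the other 3 libraries, while replicate 1 lay between the libraries of the first experiment, so the experiments overlapped. The lowest of these counts, 96, was well over the 3 counts that a count of 0 still allows (0.289 to 0.757 CPM).

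**Figure D3:**
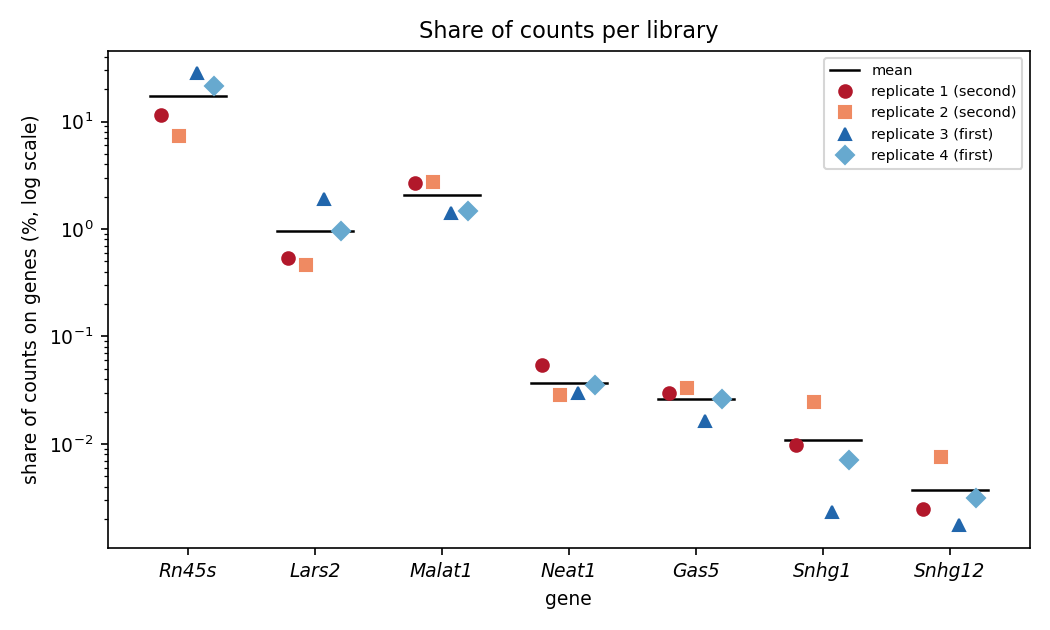
Share of the counts on genes (vertical axis, percent, logarithmic) of the 7 rows in each of the 4 libraries, with the mean over libraries as a bar; red and orange stand for the second experiment, blue for the first. *Rn45s* lies between 7.36% and 28.1% in every library, and *Snhg12* below 0.01%.

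Per length, the order of the 7 rows was *Rn45s* (81497 ± 48428 TPM), *Malat1* (8249 ± 3159), *Lars2* (6100 ± 4671), *Gas5* (958 ± 256), *Snhg1* (612 ± 514), *Snhg12* (164 ± 104) and *Neat1* (49.5 ± 19.4). *Rn45s* was above *Malat1* in 4 of 4 libraries, by 3.18 to 23.99 times. *Malat1* and *Lars2* did not differ beyond their spread: *Malat1* was higher in the 2 libraries of the second experiment and *Lars2* in the 2 of the first. *Gas5* was above *Snhg1* in 3 of 4 libraries, with replicate 2 as the exception. *Lars2* was above *Gas5*, *Snhg1* above *Snhg12* and *Snhg12* above *Neat1* in all 4. By mean share of counts, which is not corrected for length, *Neat1* ranked 365 (between *Adam19* and *Rpl23*), *Gas5* 570 (between *BC005537* and *Diaph1*), *Snhg1* 1764 (between *Atf1* and *Nme2*) and *Snhg12* 4568 (between *Uba7* and *Acadsb*) of the 25239 rows. The last 2 rested on replicate 2, where *Snhg1* ranked 709 and *Snhg12* 3092, against 2113 to 4756 and 5140 to 5409 in the other libraries. Without it their mean shares were 0.0064% in place of 0.0109%, and 0.0025% in place of 0.0037%.

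The starts of the 3 snoRNA host genes (for *Gas5*, the downstream one of 2 in RefSeq) are shown since host genes of this class, like the genes of ribosomal proteins and translation factors, are known for transcripts that begin with a run of pyrimidines, the 5′ terminal oligopyrimidine (5′TOP) motif, which ties them to mTOR and growth control. Each line gives 40 bases before and 40 from the first annotated base (RefSeq, GRCm38.p6), and capitals mark the run of C and T that covers that base.
Gas5 (chr1:161035126-161035205, plus strand): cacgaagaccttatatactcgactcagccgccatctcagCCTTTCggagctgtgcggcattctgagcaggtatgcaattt
Snhg1 (chr19:8723447-8723526, plus strand): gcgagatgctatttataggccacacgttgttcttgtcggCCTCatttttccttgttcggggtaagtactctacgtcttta
Snhg12 (chr4:132308638-132308717, plus strand): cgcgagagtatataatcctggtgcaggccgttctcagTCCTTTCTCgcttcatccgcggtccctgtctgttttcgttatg
The runs were 6, 4 and 9 bases long. A C at the annotated first base followed by at least 4 pyrimidines was found at this start of *Gas5*, and not at its other start or at the annotated starts of *Snhg1* or *Snhg12*. That rule was met by 2.51% of 32851 RefSeq windows and by 19.5% of the 77 windows of cytosolic ribosomal protein genes, and a run of 5 or more by 10.1% and 28.6%. The letters CACGTG, the E-box bound by MYC among others, read on both strands, were in 7.15% of all windows and in none of the windows of these 3 genes, *Malat1* or *Lars2*. These are matches of letters in a reference and say nothing of which start was used in these cells.

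The snoRNAs themselves lie in the introns of the host genes, where the counting on exons gives them rows of their own. *Snord47*, inside *Gas5*, had 7, 9, 2 and 6 counts in replicates 1 to 4. *Snord22*, inside *Snhg1*, had 47, 81, 3 and 0 counts. The 4 snoRNA rows inside *Snhg12* (*Snord99*, *Snora61*, *Snora16a* and *Snora44*) had 47 counts in all, of which *Snord99* had 29. The snoRNA rows thus held far fewer counts than the spliced hosts, which had 6981 (*Gas5*), 3248 (*Snhg1*) and 1053 (*Snhg12*) in the 4 libraries together. These snoRNA rows are 56 to 136 bases long, against 476 to 751 exonic bases for the hosts. How well such short RNAs enter these libraries was not tested, so the counts do not compare the amounts of snoRNA and host. Only snoRNAs with a row of their own are covered.

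Markers of other cells differed between the libraries, and fewer cells of a type cannot be told apart from less RNA per cell in such bulk samples. The 7 T cell markers took 0.128% to 0.372% of the counts and *Cd8a* and *Cd8b1* at most 0.000149%. The 5 NKT cell markers took 0.345%, 0.106%, 0.407% and 0.212% in replicates 1 to 4. The 21 epithelial markers, each with a count in at least 1 library, took 0.103% and 1.24% in replicates 1 and 2 of the second experiment and 0.0205% and 3.11% in replicates 3 and 4 of the first. The 6 plasma cell markers, each with a count in at least 1 library, took 0.655% and 0.839% in the second experiment and 0.0114% and 0.0387% in the first, so they did not overlap. Single genes made up much of these sums. *Lyz1* of the epithelial list had a mean share of 0.561% ± 1.07 over the 4 libraries, and *Jchain* of the plasma cell list 0.348% ± 0.395. Epithelial markers were thus higher by share in replicate 2 than 1 and in replicate 4 than 3. *Malat1*, *Gas5*, *Snhg1* and *Snhg12* went the same way by share, and only *Snhg1* and *Snhg12* also did so in CPM. Plasma cell markers were higher in the second experiment, as *Malat1*, *Gas5* and *Snhg1* were. By share of counts, NKT cell markers were lower in replicate 2 than 1 and in replicate 4 than 3, as *Rn45s* and *Lars2* were. *Malat1* and *Neat1* were lower in both of these pairs in CPM but not by share. The part of these cells in the values of the 7 rows was not tested.

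Between the experiments, none of the 7 rows passed an adjusted p of 0.05 in edgeR's quasi-likelihood fit of 11689 genes (adjusted p = 0.9997 for each), and the background of calls was 0.0% of all genes. At an unadjusted p under 0.05 this fit had 248 genes (2.12%) and none of the 7. DESeq2 called 41 genes (0.351%) and none of the 7, and at an unadjusted p under 0.05 it had 4.44% of the genes, with *Rn45s* and *Lars2* among them. *Rn45s* had a log2 difference of -1.66 (SE 2.19) in the second against the first experiment and *Lars2* of -1.82 (SE 1.09). *Malat1* had 0.67 (SE 1.17), *Gas5* 0.35 (SE 0.54) and *Neat1* 0.14 (SE 0.63). *Snhg1*, at 1.64 (SE 0.74), had the smallest unadjusted p of the 7 in this fit (0.0645, edgeR), and *Snhg12* had 0.75 (SE 0.89). By CPM, 5 of the 7 did not overlap between the experiments: *Rn45s* and *Lars2* were higher in the first, against 14.4% of all tested genes, and *Malat1*, *Gas5* and *Snhg1* in the second, against 14.7%. The same 5 did not overlap under the 3 other scalings, while the background moved to 10.5% higher in the first and 21.1% in the second with library size alone. An exact two-sided permutation test of 2 against 2 libraries cannot go below p = 0.333, so it could not separate the experiments for any row.

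**Figure D4:**
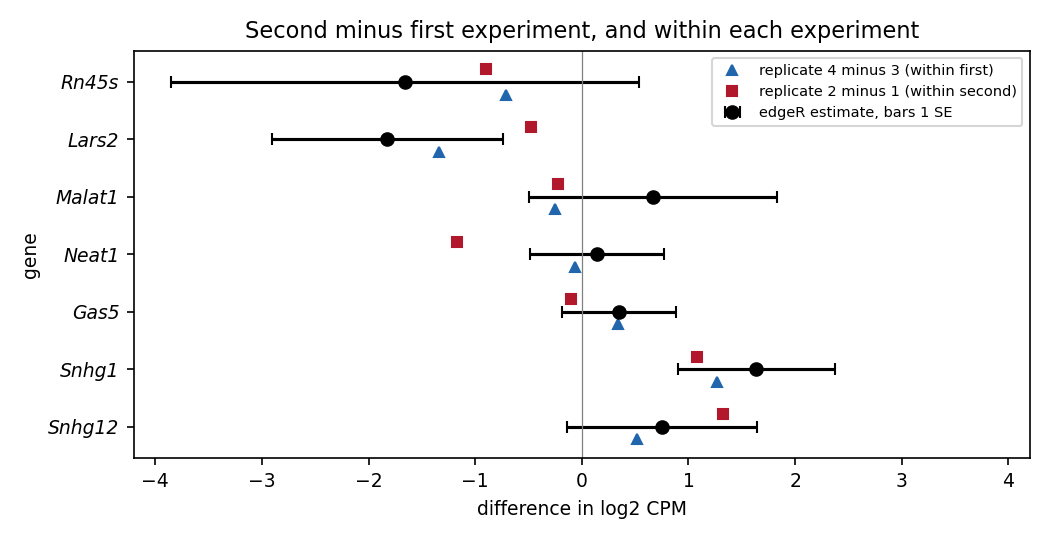
Difference in log2 CPM (horizontal axis) for the 7 rows: edgeR's estimate of the second minus the first experiment (black, bars 1 SE), replicate 4 minus 3 (triangles) and replicate 2 minus 1 (squares). The estimates run from -1.82 (*Lars2*) to 1.64 (*Snhg1*), and the differences within an experiment from -1.34 (*Lars2*) to 1.32 (*Snhg12*).

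Within an experiment the libraries also differed. *Rn45s* differed by -0.71 log2 units in replicate 4 against 3 and by -0.89 in replicate 2 against 1, and *Lars2* differed by -1.34 and -0.47. *Malat1* differed by -0.25 and -0.22. *Snhg12* was higher in replicate 4 than 3 (0.51) and in replicate 2 than 1 (1.32), and *Snhg1* likewise (1.27 and 1.08), a direction that 35.2% of the tested genes had in both pairs. *Rn45s*, *Lars2*, *Malat1* and *Neat1* were lower in both of these pairs, like 29.9% of the genes. *Neat1* was nearly level in the first experiment (-0.06) and differed by -1.17 in the second, and *Gas5* moved in opposite directions (0.34 and -0.10). These directions are in CPM after TMM scaling, and some of them depended on it. By share of counts, *Malat1* and *Gas5* were higher in both pairs. *Neat1* was by share higher in replicate 4 than 3 and lower in replicate 2 than 1.

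**Figure D5:**
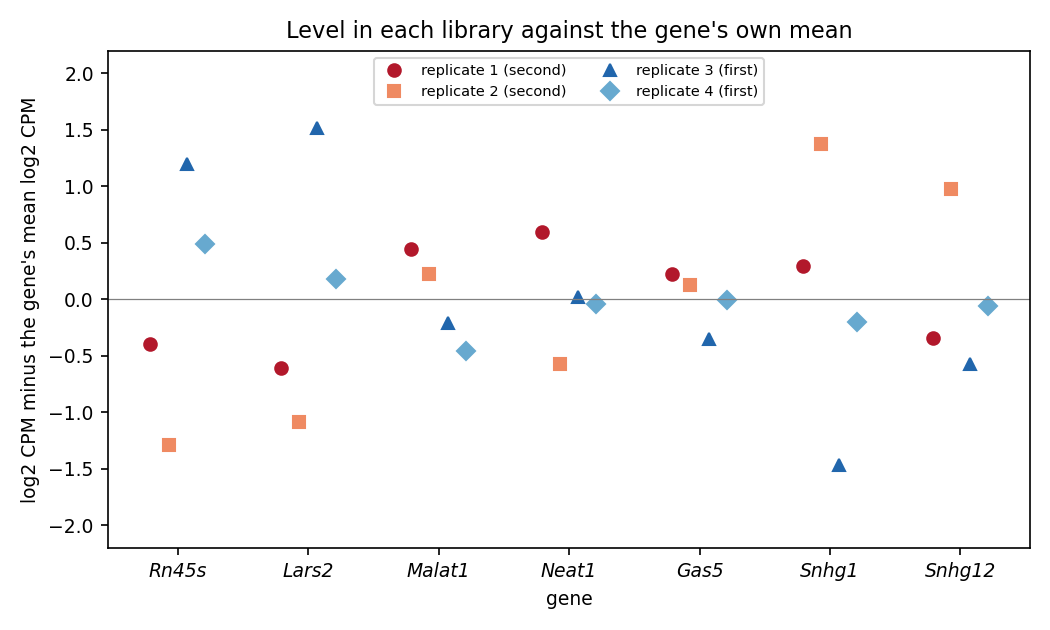
Level of each of the 7 rows in each library (log2 CPM, vertical axis) after its own mean over the 4 libraries was taken off. Replicate 3 (dark triangles) is at the top for *Rn45s* and *Lars2* and at the bottom for *Gas5*, *Snhg1* and *Snhg12*, and replicate 2 (squares) is the reverse for all of these but *Gas5*.

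The genes whose pattern over the 4 libraries was most like that of each row were found among the 4066 genes with at least 100 counts everywhere, by the root mean square (RMS) difference of centred log2 CPM. With 4 libraries and so many genes, close matches are to be had for most patterns. *Rn45s* was nearest to *Aagab* (0.081), *Phf6* (0.085) and *Tfip11* (0.099), and *Lars2* to *Zap70* (0.124), *Ypel3* (0.169) and *Septin1* (0.171). *Malat1* was nearest to *Eif3a* (0.027), *S100a11* (0.029) and *Cul1* (0.039), and *Neat1* to *Stag1* (0.019), *Kpna4* (0.045) and *Picalm* (0.048). *Gas5* was nearest to *Khdc4* (0.031), *Srsf7* (0.057) and *Ext1* (0.062). *Snhg1* was matched least closely, with *Tulp4* (0.193), *Gfpt1* (0.239) and *Eif2a* (0.261) as the nearest. *Snhg12* was nearest to *4833420G17Rik* (0.055), *St8sia1* (0.056) and *Slc25a5* (0.068).

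The other genes of the pathways around these rows were described by lists. Of 87 rows of cytosolic ribosomal protein genes, whose counts near-identical pseudogenes could share, 81 were tested and none was called between the experiments, in either direction. Their log2 difference was below 0 for 70 and above 0 for 11, with a median of -0.61 beside 0.03 for all tested genes, and 56 of them were higher in the first experiment without overlap, where 14.4% of all tested genes were. With library size alone these were 37, and the median was -0.34 beside 0.28 for all genes. Their summed share was 2.84% in replicate 1, 4.36% in replicate 2, 4.06% in replicate 3 and 4.14% in replicate 4. The highest per length were *Rpl41* (5311 ± 1937 TPM), *Rpl32* (3709 ± 762) and *Rps29* (3694 ± 1177). Of the translation factors and related 5′TOP genes, 15 were tested, none was called and 10 had a difference below 0 (median -0.28), and *Eef1a1* (8662 ± 1120 TPM), the translation-linked protein gene *Tpt1* (4748 ± 1370) and the poly(A)-binding protein gene *Pabpc1* (2767 ± 989) led them. The means of *Eef1a1* and *Malat1* per length lay within 1 SD of each other.

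For the machinery that makes and processes rRNA, none of the genes was called. Of 15 genes of RNA polymerase I and its factors, 7 had a difference above 0 and 8 below (median -0.20), and *Polr1d* (130 ± 43.3 TPM), *Taf1d* (88.1 ± 48.1) and *Znrd1* (88.0 ± 38.6), which encode subunits of the polymerase or of its initiation factor, were highest. Their summed level was 467, 522, 532 and 497 CPM in replicates 1 to 4. Of 24 genes of rRNA processing and ribosome assembly, 11 lay above 0 and 13 below (median -0.16), led by the nucleolar proteins *Npm1* (1187 ± 333 TPM) and *Ncl* (306 ± 51.1) and the methyltransferase *Fbl* (157 ± 117), which the snoRNAs of the box C/D class guide. *Fbl* had 13.4, 44.1, 77.4 and 147 CPM in replicates 1 to 4, with no overlap between the experiments. Its log2 difference was -1.96 (SE 0.84), which did not pass the test.

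Of 21 noncoding snoRNA host genes in the table, the 3 described above among them, 17 were tested and none was called. Their median difference was 0.35, with 11 above 0 and 6 below, and it turned to -0.89 without replicate 2. *Gas5* and *Snhg1* were the highest per length and *Zfas1* (182 ± 89.7 TPM) the third, just above *Snhg12*. *Zfas1* had 27.6, 66.1, 29.6 and 72.6 CPM in replicates 1 to 4, so like *Snhg1* it was higher in replicate 2 than 1 and in replicate 4 than 3. Across the 17 genes the median of replicate 4 minus 3 was 0.70 log2 units and that of replicate 2 minus 1 was 1.08, beside 0.08 and 0.14 for all tested genes. *Snhg9* and *Snhg11* had no count in any library.

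The proteins that share nuclear bodies with *Malat1* and *Neat1* were tested in the same way, and none was called. Of 14 nuclear speckle genes 13 had a difference above 0 (median 0.37; 9 without replicate 4, and 11 with a median of 0.23 without replicate 1), led by the splicing factors *Srsf5* (851 ± 379 TPM), *Srsf2* (719 ± 247) and *Srsf3* (604 ± 155). Of 15 paraspeckle genes 6 lay above 0 and 9 below (median -0.05), and among the highest per length were *Hnrnpk* (332 ± 75.1 TPM) and *Sfpq* (278 ± 120). Of 10 factors of nonsense-mediated decay, 4 lay above 0 and 6 below (median -0.13), and *Smg1* (73.6 ± 31.5 TPM) and *Smg6* (71.3 ± 12.7) were among the highest.

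Other noncoding RNAs gave a scale for the 7 rows. Of 17 other abundant or structural RNAs listed, 4 had a row: the RNase P RNA *Rpph1* (939 ± 848 TPM), the RNase MRP RNA *Rmrp* (238 ± 178), the telomerase RNA *Terc* (19.2 ± 18.5) and *Rn4.5s*, with 1 count in all. *Rpph1* had 246, 601, 420 and 1145 counts in replicates 1 to 4 and, like the other two tested genes of this list, a log2 difference below 0 (-2.05, SE 0.75) that was not called. Of 23 other long noncoding RNAs listed, 21 had a row and 17 were tested, with 12 above 0 and 5 below (median 0.54) and none called. The highest, *Lncpint* (200 ± 143 TPM), *Oip5os1* (96.2 ± 35.1) and *Tug1* (84.7 ± 28.2), stood below *Malat1* in mean TPM, and *Lncpint* and *Snhg12* lay within 1 SD of each other.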

How the data were processed

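RNA-seq of SI-LP NKT cells (4 libraries, 2 experiments) was analysed. The authors aligned the reads with HISAT2 according to the paper, while the submitters' processing notes list Bowtie2 and RSEM and not HISAT2. They deposited raw counts per gene from featureCounts 1.6.4 (file header), on RefSeq exons in paired mode without strand and with primary alignments only, so a read that fits several rRNA-like places counts at one of them. The notes also name GRCm38.p6 and the paper GRCm39; coordinates are GRCm38 as deposited. Of 6 library columns, 2 match no label and were not used. Total counts were 3882803 to 8732858 per library. Intervals and the floor of 3 counts cover counting error only.

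Testing covered the 11689 genes that reached 10 counts in 2 or more libraries, with edgeR 4.0.16 (TMM, quasi-likelihood, Benjamini-Hochberg) in R 4.3.3, with the experiment as the only term. CPM used TMM factors, and TPM the deposited gene lengths. BLAST 2.17.0 searched the *Lars2* transcript. The steps were tested on simulated data. DESeq2 1.42.0, 3 other scalings, other filters and leaving out each library were alternatives. The 7 rows and the lists were chosen with earlier results of these data known. Named genes are the 7 rows, the 3 highest of each list by mean TPM, the 3 nearest patterns, rows inside the members and neighbours in rank of share (some list genes are not reported here); *Fbl* and *Zfas1* fell under the list rule and were described further after their values were seen.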

Additional observations from a re-analysis of the deposited data

Results flagged for a closer look

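Of 29 values examined for a library far from the other 3 (by Dixon's test for groups of 4), 3 stood apart, where chance gives about 1 in 20. *Neat1* was at 78.3 TPM in replicate 1, against 35.6 to 42.8 TPM in the others. *Snhg12* was at 318 TPM in replicate 2, against 87.0 to 125 TPM in the others. The ratio of *Malat1* to *Neat1* counts was 96.4 in replicate 2, against 41.6 to 49.9 in the others. *Neat1* and *Snhg12* did not stand apart in CPM or share of counts.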

How the results depend on the processing

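No paired analysis was possible because the study has a single condition here and no label ties a library of one experiment to one of the other. Of 231 values under the alternatives, 213 kept their direction and side of the threshold, or moved by no more than 1 SD or 1.5 times. The count of genes called between the experiments, 0, became 60 with no filter on low counts and 41 with DESeq2, and 0 to 7 when 1 replicate was left out (7 without replicate 3 and 6 without replicate 4); the causes were not tested. None of the 7 rows was called under any of them. *Neat1* turned to -0.53 without replicate 1 (up to 0.60 without another) and *Snhg12* to -0.077 without replicate 2 (up to 1.29). Leaving out 1 replicate gave log2 differences from -2.14 to -1.27 for *Rn45s*, -2.33 to -1.02 for *Lars2*, 0.55 to 0.79 for *Malat1*, 0.17 to 0.54 for *Gas5* and 0.96 to 2.42 for *Snhg1*. Library size alone moved the median log2 difference of all genes from 0.03 to 0.28 and moved the genes without overlap from 1723 higher in the second and 1684 in the first experiment to 2463 and 1227. The mean ratio of *Lars2* to *Rn45s* counts ran from 5.11% to 5.91% when 1 replicate was left out. The highest library over the lowest fell to 3.01-fold without replicate 2 for *Rn45s*, to 2.40-fold without replicate 3 for *Lars2*, to 2.99-fold without replicate 3 for *Snhg1* and to 1.43-fold without replicate 2 for *Snhg12*. The percentile of *Snhg12* was 92.4 by TPM and 59.6 by CPM. At unadjusted p, *Lars2* (0.0105) and *Rn45s* (0.0132) passed 0.05 in DESeq2, and *Snhg1* with no filter (0.031) and, by edgeR, without replicate 4 (0.0455).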

Other observations

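One further row, singled out after its values were seen, was *Mir6236*, a microRNA row of 123 bases on chromosome 9. It had 305, 323, 3641 and 518 counts in replicates 1 to 4, which made 42.5, 31.1, 817 and 131 CPM, so replicate 3 was highest, as for *Rn45s* and *Lars2*. Its log2 difference, second minus first experiment, was -3.69 (SE 0.97, adjusted p = 0.9997 by edgeR).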
